A study of Mus musculus with 8 samples.

Results

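The BCL2 family genes that set the threshold for mitochondrial cell death were compared between induced regulatory T cell (iTreg) cultures with and without *Tdrd3*. The members were 10 named genes, all of which were among the 11911 genes of the deposited count table and all of which passed the filter on low counts. They comprised 3 pro-survival genes (*Bcl2*, *Bcl2l1* and *Mcl1*), 2 pore-forming effectors (*Bax* and *Bak1*) and 5 BH3-only genes (*Bcl2l11*, *Bid*, *Bad*, *Pmaip1* and *Bbc3*). The control group, labelled WT, held 4 libraries from *Foxp3YFP-Cre* mice, and the knockout group, labelled KO, held 4 libraries from *Tdrd3fl/fl/Foxp3YFP-Cre* mice. Both genotypes carried Cre and a yellow fluorescent protein at the *Foxp3* locus, and both were on the C57BL/6J background. The age of the mice used for RNA was not stated. Naïve CD4+ T cells from spleen were activated with anti-CD3 and anti-CD28 and polarized for 36 hours with TGF-β and antibodies against IL-4 and IFN-γ, in the same way for both genotypes. Cre from *Foxp3* can delete *Tdrd3* only in cells that have turned *Foxp3* on, and no sort of YFP+ cells before RNA isolation was described. In such bulk RNA, fewer cells of a type and less RNA per cell cannot be told apart.

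In the mitochondrial pathway of apoptosis, BAX and BAK, the products of *Bax* and *Bak1*, oligomerize in the outer mitochondrial membrane and release cytochrome c, which drives assembly of the caspase-activating apoptosome. BCL-2, BCL-XL (from *Bcl2l1*) and MCL-1 hold BAX and BAK in check. The BH3-only proteins bind the pro-survival proteins or activate BAX and BAK directly. In T cells, BIM (from *Bcl2l11*) is a main trigger of death when cytokine is withdrawn, MCL-1 is needed for survival of regulatory T cells, and BCL-XL is induced on costimulation through CD28. Many of these proteins are also regulated by phosphorylation, cleavage or degradation, which RNA counts do not show.

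The listed genes summed to between 13258239 and 16001676 estimated counts per library. *Tdrd3* had 18.8, 15.1, 9.95 and 17.7 CPM (counts per 1000000 of the TMM-scaled total of the tested genes) in libraries WT1 to WT4 and 13.7, 10.7, 12.9 and 11.1 in KO1 to KO4, a log2 fold change of −0.35 with an edgeR adjusted p of 0.496. These counts cover the whole gene and do not single out the deleted exons. The library labelled WT3 had less *Tdrd3* RNA than every KO library, which went against its label, and values without it are given for the results that it moved most. All 7 T cell markers examined were tested, and their summed level was 1967 to 2072 CPM in WT and 1959 to 2011 CPM in KO libraries. Of the B cell markers 3 of 5 were listed, and they summed to 1.92 to 3.71 CPM in WT and 1.09 to 2.93 CPM in KO libraries. Of the myeloid markers 2 of 7 were listed, at 0.479 to 1.16 and 0.439 to 2.11 CPM, and of the natural killer cell markers 1 of 4, at 0.212 to 1.26 and 0.501 to 1.43 CPM. *Cd8a*, a marker of CD8+ T cells, had 11.3 CPM in the library labelled WT3 and between 0.436 and 1.37 CPM in the others. With *Cd8b1*, these CD8+ T cell markers summed to 7.72 to 21.8 CPM in WT and 6.68 to 8.35 CPM in KO libraries. All 7 induced regulatory T cell markers were tested, and they summed to 3571 to 3719 CPM in WT and 3345 to 3491 CPM in KO libraries, without overlap. Of these 7 markers 5 had a log2 fold change below 0, as had 5585 of all 11317 tested genes. None of the 7 had an edgeR adjusted p below 0.05. At an unadjusted edgeR P below 0.05, 3 of the 7 were lower in KO and 0 higher, against 4.91% and 4.38% of all tested genes. Without *Il2ra*, the most abundant of them, the other 6 summed to 1305 to 1418 CPM in WT and 1320 to 1348 CPM in KO libraries, which overlapped. *Foxp3*, which defines these cells, had 117, 122, 107 and 93.8 CPM in WT1 to WT4 and 77.2, 105, 93.2 and 78.1 CPM in KO1 to KO4, with an edgeR adjusted p of 0.152. Both *Tdrd3* and *Foxp3* had an unadjusted edgeR P below 0.05 and were lower in KO by at least 1.2-fold. Of all tested genes 3.47% had such a P and a change of that size in either direction.

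No BCL2 family member passed the test between genotypes. In edgeR's quasi-likelihood test, 0 of the 10 members had a Benjamini-Hochberg adjusted p below 0.05, against 0.265% of all 11317 tested genes. *Bax* alone had an unadjusted P below 0.05, at 0.0141, and it was lower in KO libraries. Over all tested genes 9.3% reached that unadjusted level, with 4.91% lower and 4.38% higher in KO, so 1 member of 10 lay near the background. No member had both an unadjusted P below 0.05 and a change of at least 1.2-fold, which 3.47% of tested genes had. The same single member had an unadjusted P below 0.05 with DESeq2 and with limma voom, and 0 members had an adjusted p below 0.05 with either. The log2 fold changes of KO against WT ran from −0.13 for *Bax* to 0.16 for *Pmaip1*, with a median of −0.01 over the members and 0.00 over all tested genes. In 0 of 10 members did all KO libraries lie on one side of all WT libraries, which was the case for 4.89% of tested genes. Without the library labelled WT3, the log2 fold changes of 4 members close to 0 changed sign, to 0.0148 for *Bcl2*, 0.0266 for *Bcl2l11*, 0.00547 for *Bid* and −0.0180 for *Bbc3*. The plot of normalized CPM by library shows the points behind these values.

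**Figure D1:**
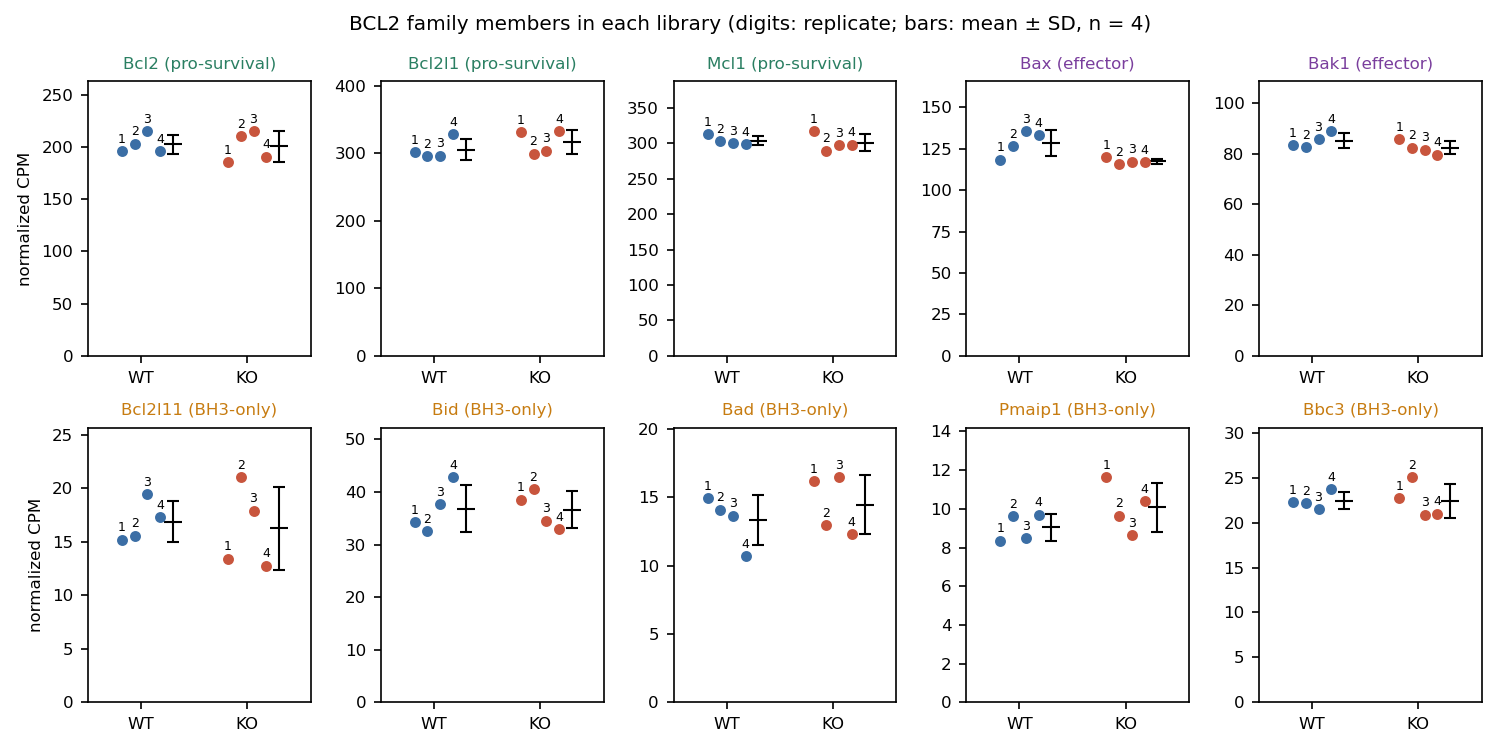
Normalized CPM (vertical axes, starting at 0) of each of the 10 BCL2 family genes in the 4 WT (blue) and 4 KO (red) libraries; digits beside the points are replicate numbers and black bars give the mean ± SD (n = 4). The genotypes overlap in every panel, *Bax* overlaps only through WT1 at 118 CPM and KO1 at 120 CPM, and the KO libraries are most spread, relative to their mean, for *Bcl2l11*.

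The intervals of the fit set bounds on these differences. The 95% interval of the fold change lay inside 1.5-fold in both directions for all 10 members, and inside 1.2-fold for 7 of them. Of all tested genes, 84.2% and 59.1% had intervals inside these limits, so the 7 members of 10 inside 1.2-fold lay near the background. *Bcl2l11*, *Bad* and *Pmaip1*, with mean levels of 9.03 to 16.9 CPM in WT libraries, were the members whose intervals crossed 1.2-fold. Their intervals on the log2 scale ran from −0.34 to 0.24 for *Bcl2l11*, from −0.15 to 0.38 for *Bad* and from −0.11 to 0.43 for *Pmaip1*. The intervals were computed gene by gene and were not widened for the number of members.

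**Figure D2:**
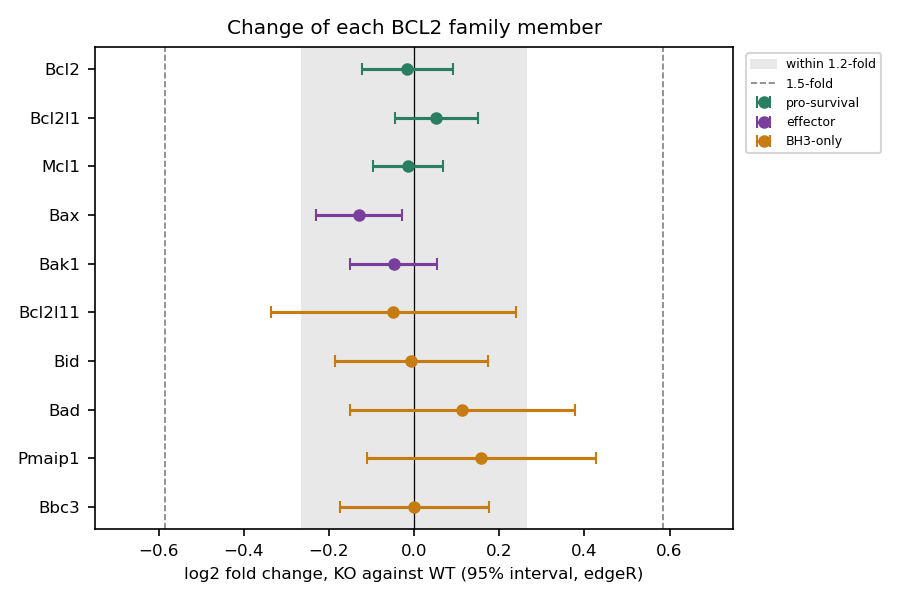
Log2 fold change of KO against WT (horizontal axis) for each member, with its 95% interval from edgeR; the grey band marks changes within 1.2-fold and dashed lines mark 1.5-fold. All 10 intervals lie between the dashed lines, and only that of *Bax* leaves out 0.

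Among the pro-survival genes, levels were close in both genotypes. *Mcl1* encodes a short-lived protein that T cells need continuously. It lies on chromosome 3 of GRCm39 from 95566026 to 95570487 and its canonical transcript has 3 exons. *Mcl1* had 313, 303, 300.0 and 298 normalized CPM in WT1 to WT4 and 317, 289, 298 and 298 in KO1 to KO4. The mean was 303 ± 6.56 (SD, n = 4) in WT and 301 ± 11.8 (SD, n = 4) in KO libraries. The highest and the lowest of the 8 libraries were both KO, so the WT values lay within the KO range. The log2 fold change of *Mcl1* was −0.01 with a 95% interval from −0.10 to 0.07. As a fold change this interval ran from 0.935 to 1.05 of the WT level. Its standard error was smaller than that of all but 3.26% of tested genes.

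*Bcl2l1*, which encodes BCL-XL in its long form and a pro-death short form from the same gene, lies on chromosome 2 from 152622582 to 152673655. Counts were given per gene, so these forms could not be separated. *Bcl2l1* had 301, 295, 296 and 328 normalized CPM in WT1 to WT4 and 331, 299, 303 and 333 in KO1 to KO4. The KO1, KO4 and WT4 libraries were high and the other 5 libraries were lower and close together. The mean was 305 ± 15.5 (SD, n = 4) in WT and 317 ± 17.8 (SD, n = 4) in KO libraries, a log2 fold change of 0.05 with a 95% interval from −0.05 to 0.15. The difference was within the spread of the libraries (two-sided exact permutation test, p = 0.200).

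*Bcl2*, the founding member of the family, lies on chromosome 1 from 106465908 to 106642060. It had 196, 203, 215 and 196 normalized CPM in WT1 to WT4 and 186, 210, 215 and 191 in KO1 to KO4. Within the KO group *Bcl2* was low where *Bcl2l1* was high, in KO1 and KO4, and the reverse held for KO2 and KO3. This split was not particular to the family. Over the listed genes together, KO1 and KO4 were the closest KO pair (chi-square per degree of freedom 2.59). KO2 and KO3 came next (3.78), and the other KO pairs had 4.04 to 4.85. The mean of *Bcl2* was 203 ± 9.06 (SD, n = 4) in WT and 201 ± 14.5 (SD, n = 4) in KO libraries. The log2 fold change was −0.02, with a 95% interval from −0.12 to 0.09.

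Both effectors had lower means in KO libraries, and *Bax* was the member with the smallest p. *Bax*, a target of p53 whose product moves from the cytosol to mitochondria, lies on chromosome 7 from 45111015 to 45116325. It had 118, 127, 136 and 133 normalized CPM in WT1 to WT4 and 120, 116, 117 and 117 in KO1 to KO4. The KO libraries were within 4 CPM of each other, 3 of 4 WT libraries lay above all of them, and WT1 lay among them. The mean of *Bax* was 129 ± 7.74 (SD, n = 4) in WT and 117 ± 1.69 (SD, n = 4) in KO libraries, a log2 fold change of −0.13 with a 95% interval from −0.23 to −0.03. The edgeR adjusted p was 0.361, and the exact permutation p, two-sided, was 0.0571, where 0.0286 is the smallest that 4 libraries against 4 allow. The spread of *Bax* in KO libraries, a coefficient of variation of 1.44%, was below the 2.43% that counting error alone would give, whereas in WT libraries it was 6.02%.

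The exons of *Bax* also share 192 bp with those of *Gm45808* on the same strand, a gene that was not among the listed genes. The value of *Bax* moved with the library labelled WT3, which had the highest *Bax* level of the 8 libraries together with the low *Tdrd3* and high *Cd8a* described above. Without it, the log2 fold change of *Bax* was −0.10 and the unadjusted edgeR P was 0.0509. WT4 had nearly as much *Bax*, at 133 CPM, but neither the low *Tdrd3* nor the high *Cd8a*. Without WT4, the log2 fold change was −0.113 and the unadjusted edgeR P was 0.0389. Without WT1, the WT library with the lowest *Bax*, the log2 fold change was −0.17, the unadjusted edgeR P was 0.00269 and the adjusted p 0.286. In each of 17 alternative settings *Bax* was lower in KO libraries, with an unadjusted P below 0.05 in 16 of them and adjusted p-values between 0.286 and 0.746. The part of the CD8+ T cell markers in the *Bax* values was not tested.

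*Bak1*, the effector that resides at the mitochondrial membrane, lies on chromosome 17 from 27238784 to 27247983. It had 83.2, 82.4, 85.8 and 88.9 normalized CPM in WT1 to WT4 and 85.7, 82.4, 81.6 and 79.6 in KO1 to KO4. The means of 85.1 ± 2.94 (SD, n = 4) and 82.3 ± 2.53 (SD, n = 4) were within the spread of the libraries, and the log2 fold change of *Bak1* was −0.05 with a 95% interval from −0.15 to 0.05. The exons of *Bak1* overlap those of *Ggnbp1* on the opposite strand over 437 bp and those of *Gm50253* over 177 bp. Whether the counting used strand is not given in the sources used here.

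Among the BH3-only genes, *Bcl2l11* varied most between KO libraries, and its means were close. In WT libraries the coefficient of variation was higher for *Bad* (13.8%) and *Bid* (12.2%) than for *Bcl2l11* (11.4%). *Bcl2l11*, a target of FOXO transcription factors, lies on chromosome 2 from 127967958 to 128004476. It had 15.2, 15.6, 19.4 and 17.3 normalized CPM in WT1 to WT4 and 13.4, 21.0, 17.9 and 12.8 in KO1 to KO4. The highest library (KO2) and the lowest (KO4) were both KO, and KO1 and KO4 lay below every WT library. The mean was 16.9 ± 1.93 (SD, n = 4) in WT and 16.3 ± 3.89 (SD, n = 4) in KO libraries, a log2 fold change of −0.05 (SE 0.137) and an exact permutation p of 0.686. The coefficient of variation was 23.9% in KO and 11.4% in WT libraries, where counting error alone would give 6.69% and 6.50%. Among the 1710 tested genes within 1.5-fold of its mean level, 98.5% varied less than *Bcl2l11* in KO libraries and 65.3% varied less in WT libraries. A test of unequal spread was not run. *Foxp3* was likewise lower in KO1 and KO4 than in KO2 and KO3, and its part in the *Bcl2l11* values was not tested.

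*Pmaip1*, which encodes NOXA, a BH3-only protein that binds MCL-1 and promotes its degradation, lies on chromosome 18 from 66591604 to 66598636. It had 8.35, 9.60, 8.48 and 9.70 normalized CPM in WT1 to WT4 and 11.6, 9.65, 8.64 and 10.4 in KO1 to KO4. KO1 and KO4 were above all WT libraries and KO2 and KO3 were among them. With 115 to 160 counts per library, the means of 9.03 ± 0.717 (SD, n = 4) and 10.1 ± 1.25 (SD, n = 4) gave *Pmaip1* a log2 fold change of 0.16 (SE 0.128). Its unadjusted edgeR P was 0.234 and its adjusted p 0.813. Without KO1, the library with the most *Pmaip1*, the log2 fold change was 0.0837. *Bbc3*, which encodes the p53 target PUMA, lies on chromosome 7 from 16042318 to 16052130. *Bbc3* had between 21.5 and 23.7 CPM in WT and between 20.9 and 25.0 CPM in KO libraries, and its log2 fold change was 0.00 with a 95% interval from −0.17 to 0.18. Both *Pmaip1* and *Bbc3* overlapped between genotypes.

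*Bid*, whose product is cut by caspase-8 to link death receptors to mitochondria, lies on chromosome 6 from 120862525 to 120894171. *Bid* had between 32.6 and 42.8 CPM in WT and between 33.0 and 40.5 CPM in KO libraries, with a log2 fold change of −0.01 and a 95% interval from −0.19 to 0.17. *Bad*, whose product is inactivated by survival kinases, lies on chromosome 19 from 6918902 to 6929280. *Bad* had between 10.7 and 14.9 CPM in WT and between 12.3 and 16.5 CPM in KO libraries, with a log2 fold change of 0.11 and an unadjusted edgeR P of 0.382. The value of *Bad* was 0.0190 without WT4, 0.0469 without KO3, 0.0541 without KO1, 0.171 without WT1 and 0.183 without KO4. Reads of both genes can be shared with listed neighbours. The annotated exons of *Bid* share 3059 bp with those of *Bcl2l13* on the opposite strand and the exons of *Bad* share 914 bp with *Gpr137*, also on the opposite strand. The estimated count was more than 0.05 away from a whole number in 62.5% of libraries for *Bid*, in 75% for *Bad* and *Bcl2l1* and in 50% for *Bcl2*, and in 0% for the other 6 members.

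The order of the members by level was compared per kilobase of the Ensembl canonical transcript, since longer transcripts yield more reads. On this scale *Bax* was highest, at 126 CPM per kb over the 8 libraries. *Bcl2l1* followed at 95.2 and *Mcl1* at 86.5, and the ranges of these neighbours overlapped. *Bak1* had 35.1 and *Bcl2* had 27.8 CPM per kb, without overlap between them. The BH3-only genes formed the lower part of the order, with *Bid* at 16.7, *Bad* at 11.7, *Bbc3* at 8.35, *Pmaip1* at 3.50 and *Bcl2l11* at 3.28 CPM per kb. *Bid* did not overlap *Bad*, *Bad* overlapped *Bbc3*, and *Pmaip1* overlapped *Bcl2l11*. Among all tested genes *Bax* lay at the percentile 96.2 of levels per kb and *Bcl2l11* at 23.3. The order depends on the transcript length used: over the union of all annotated exons *Mcl1* led, followed by *Bax* and *Bcl2l1*, and *Bcl2l11* was last on both scales. The other BH3-only genes also changed order on the union scale. There *Bbc3* had 4.68, *Bid* 3.75, *Pmaip1* 3.50 and *Bad* 3.10 CPM per kb.

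**Figure D3:**
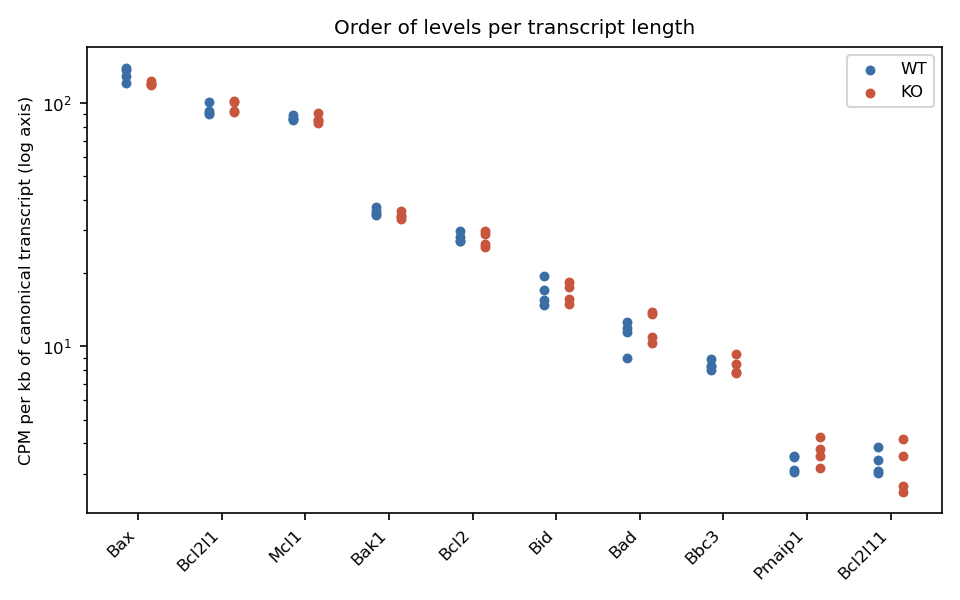
Level of each member in CPM per kilobase of canonical transcript (logarithmic vertical axis), with 1 point per library, WT in blue and KO in red. The members run from 126 CPM per kb for *Bax* to 3.28 for *Bcl2l11*, with the 5 BH3-only genes below the other 5.

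The pro-survival genes were set beside the pro-death genes within each library as a description, with no test. Summed per kb, the 3 pro-survival genes gave 208 ± 3.45 CPM per kb (SD, n = 4) in WT and 211 ± 6.30 (SD, n = 4) in KO libraries. The 7 pro-death genes gave 210 ± 9.70 (SD, n = 4) and 199 ± 5.16 (SD, n = 4). The size of these sums, and of the ratios below, depends on the transcript length used. The closeness of the pro-survival and pro-death sums is therefore no measure of balance. Over the union of all annotated exons *Bax* had 66.3, *Bid* 3.75 and *Bad* 3.10 CPM per kb over the 8 libraries. On that scale *Bcl2l1* had 60.6, *Mcl1* 86.5 and *Bcl2* 21.9 CPM per kb. *Bax* makes up most of the second sum, and the 5 BH3-only genes together gave 43.0 ± 1.19 (SD, n = 4) in WT and 44.1 ± 3.27 (SD, n = 4) in KO libraries.

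The ratio of *Bcl2* to *Bcl2l11*, per kb, was 8.99, 9.09, 7.72 and 7.90 in WT1 to WT4 and 9.62, 6.98, 8.38 and 10.4 in KO1 to KO4. The genotypes overlapped, and KO4 and KO2 held the highest and the lowest ratio. The ratio of *Bcl2l1* to *Bcl2l11* was 28.2 ± 3.16 (SD, n = 4) in WT and 31.7 ± 8.92 (SD, n = 4) in KO libraries. Here KO1 and KO4, at 38.1 and 40.3, were above every WT library, and KO2, at 22.0, was below every WT library. The log2 of the KO mean over the WT mean of this ratio was 0.165, and it was 0.0281 without KO4, 0.0639 without KO1, 0.0884 without WT3 and 0.305 without KO2. For *Bcl2* to *Bcl2l11* it was 0.0701, and it was −0.0174 without KO4 and 0.168 without KO2. The ratio of *Bcl2* to *Bax* was 0.213 ± 0.0106 (SD, n = 4) in WT and 0.230 ± 0.0190 (SD, n = 4) in KO libraries. The ratio of *Mcl1* to *Pmaip1* was 26.4 ± 2.49 (SD, n = 4) in WT and 23.6 ± 2.42 (SD, n = 4) in KO libraries, and the groups overlapped in both.

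**Figure D4:**
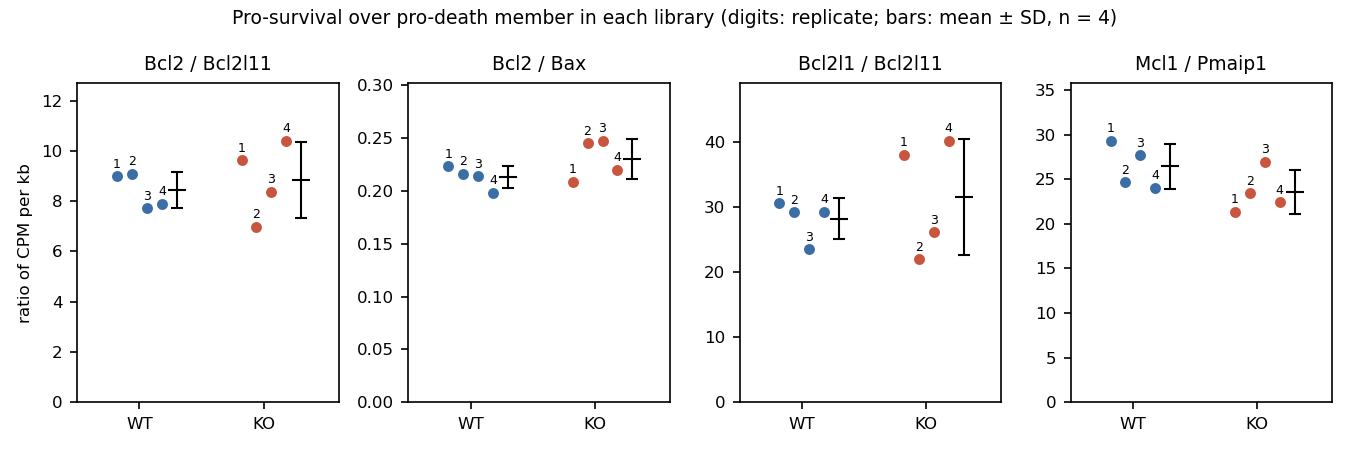
Ratio of the CPM per kb of a pro-survival gene to that of a pro-death gene (vertical axes, starting at 0) in each WT (blue) and KO (red) library; digits are replicate numbers and bars give the mean ± SD (n = 4). All 4 ratios overlap between genotypes, and the KO libraries split into KO1 and KO4 above KO2 and KO3 for both ratios over *Bcl2l11*. The same pairs of KO libraries were also the closest over the listed genes together.

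The tested genes whose log2 CPM followed a member most closely over the 8 libraries were listed for *Bcl2l11* and *Bcl2*, as a description. For *Bcl2l11* these were *Ccnb2*, which encodes cyclin B2 (Pearson r = 0.949, Spearman rho = 0.952), and *Sqle*, which encodes squalene epoxidase (r = 0.943, rho = 0.881). For *Bcl2* they were *Commd7* (r = 0.979) and *Isoc2b* (r = 0.963). They were picked as the highest of 11317 genes over only 8 libraries that share their depth scaling, and none of the 4 had an unadjusted edgeR P below 0.05 between genotypes.

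Beyond the members, 11 of 15 other BCL2-related genes were listed and tested, and 0 of them passed the adjusted test. *Bcl2a1d*, a copy of the NF-κB-induced pro-survival gene A1, had the only unadjusted P below 0.05 in this group, a level that 9.3% of all tested genes reached. *Bcl2a1d* had 18.4, 18.1, 21.7 and 20.2 normalized CPM in WT1 to WT4 and 28.0, 23.6, 22.8 and 23.4 in KO1 to KO4, so that every KO library lay above every WT library. Of all tested genes 4.89% did not overlap between genotypes, in either direction. The edgeR log2 fold change of *Bcl2a1d* was 0.32 (SE 0.0910), its unadjusted P was 0.00241 and its adjusted p 0.164. Its exact permutation p was 0.0286, the smallest that 4 libraries against 4 allow. In each of 17 alternative settings the unadjusted P of *Bcl2a1d* was below 0.05, and its adjusted p ran from 0.0806 to 0.898. The A1 copies are nearly identical, so reads can be divided between them by the counting. *Bcl2a1b* had a log2 fold change of −0.01. When *Bcl2a1b* and *Bcl2a1d* were summed, a step chosen after seeing the data, the genotypes overlapped, at 43.1 ± 3.32 CPM (SD, n = 4) in WT and 47.8 ± 2.91 (SD, n = 4) in KO libraries, with an exact permutation p of 0.0857. *Bcl2l2*, which encodes the pro-survival protein BCL-W, had a log2 fold change of 0.02 and the BH3-only gene *Bmf* of 0.01.

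In the apoptosome and mitochondrial, caspase and inhibitor of apoptosis lists, 0 of 18 tested genes passed the adjusted test. All 7 genes of the apoptosome and mitochondrial list were tested, with a median log2 fold change of −0.004, and the most abundant were *Vdac2*, a channel protein that binds BAK (log2 fold change 0.08), and the protease gene *Htra2* (0.04). All 6 caspases had a log2 fold change below 0, with a median of −0.08. Of all 11317 tested genes 5585 had a log2 fold change below 0. Only 1 of the 6 caspases had an unadjusted edgeR P below 0.05, against 9.3% of all tested genes. This was *Casp8*, the initiator caspase of death receptors, with an unadjusted edgeR P of 0.0321 and an adjusted p of 0.479. *Casp8* had 151 ± 8.39 CPM (SD, n = 4) in WT and 139 ± 7.35 (SD, n = 4) in KO libraries, which overlapped. The 5 inhibitors of apoptosis had a median log2 fold change of −0.07, with *Birc6* at −0.07 and *Xiap* at −0.03. Every KO library of *Birc6* lay below every WT library, but only just, with KO2 at 453.36 and WT1 at 453.49 CPM. Its unadjusted edgeR P was 0.0989, and 4.89% of all tested genes did not overlap between genotypes.

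In the death receptor list 1 of 11 tested genes passed the adjusted test, against 0.265% of all tested genes. *Tnfsf10*, which encodes the death ligand TRAIL, fell from 39.8 ± 3.64 CPM (SD, n = 4) in WT to 28.5 ± 4.05 (SD, n = 4) in KO libraries, a log2 fold change of −0.48 with an edgeR adjusted p of 0.0348. *Tnfsf10* had 38.1, 36.4, 44.9 and 39.9 CPM in WT1 to WT4 and 23.1, 31.1, 32.1 and 27.8 in KO1 to KO4, without overlap. Its adjusted p was below 0.05 in 12 of 17 alternative settings, over which it ranged from 0.00147 to 0.280. The call was lost without WT1 (0.0986), without WT3 (0.103), without KO1 (0.131) and without KO4 (0.154), and with 1 surrogate variable, while the log2 fold change stayed between −0.54 and −0.39. Its receptor gene *Tnfrsf10b* had a log2 fold change of 0.07 and *Cflar*, which encodes the caspase-8 inhibitor FLIP, of 0.06, and neither passed.

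Of 18 tested regulators of BCL2 family genes or proteins, 0 passed the adjusted test and 4 had an unadjusted P below 0.05, against 9.3% of all tested genes. *Mapk8* (JNK1, a kinase that phosphorylates BIM), *Ddit3* (CHOP, a stress factor that can induce *Bcl2l11*) and *Stat5a* (which carries IL-2 signals to *Bcl2l1*) had log2 fold changes of 0.20, 0.29 and 0.11. *Pim1*, a kinase that phosphorylates BAD, had a log2 fold change of −0.21. The edgeR adjusted p-values of these 4 genes were 0.222, 0.499, 0.471 and 0.152. *Trp53*, *Foxo1* and *Foxo3*, the genes of the p53 and FOXO factors, had log2 fold changes of −0.01, 0.02 and −0.06.

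Among 8 tested cytokines, cytokine receptors and kinases upstream of the family, 0 passed the adjusted test. *Il2ra*, the alpha chain of the IL-2 receptor, had 2268 ± 78.3 CPM (SD, n = 4) in WT and 2076 ± 67.5 (SD, n = 4) in KO libraries, without overlap, a log2 fold change of −0.13 and an edgeR adjusted p of 0.152. Over the 66 tested genes of all 7 lists, 8 had an unadjusted P below 0.05 and 1 an adjusted p below 0.05, and 5 did not overlap between genotypes. Over all tested genes these shares were 9.3%, 0.265% and 4.89%. The median log2 fold change over these 66 genes was −0.004.

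**Figure D5:**
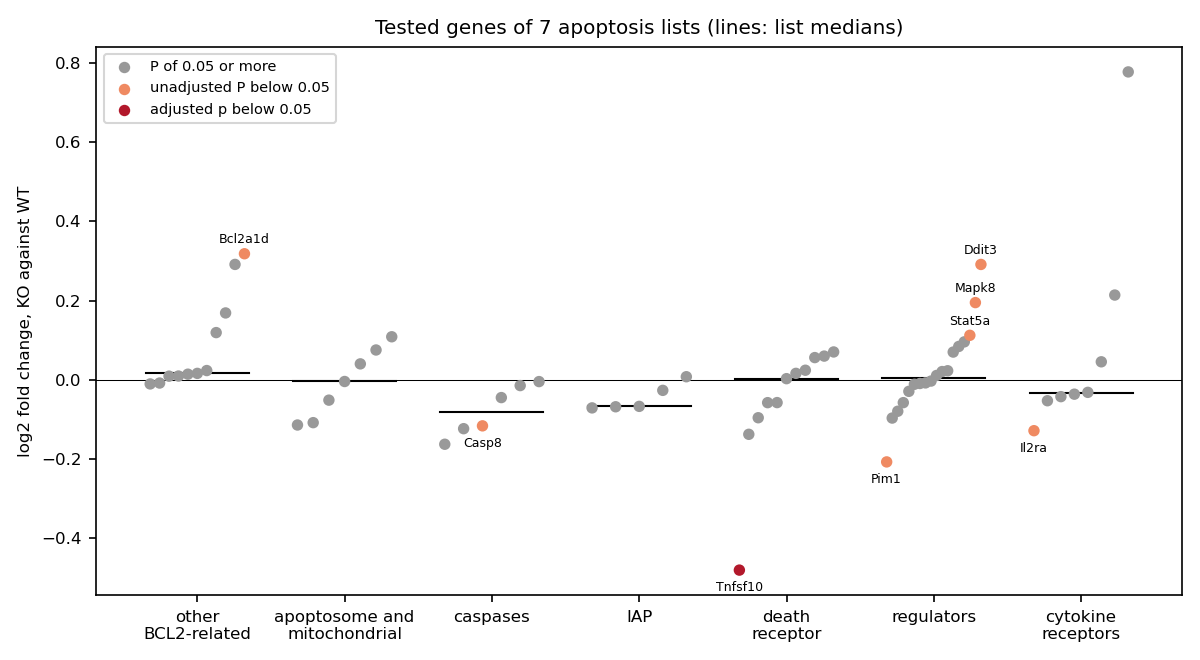
Log2 fold change of KO against WT (vertical axis) for the 66 tested genes of 7 lists around apoptosis, 1 point per gene, with lines at the list medians; orange points have an unadjusted P below 0.05 and the red point an adjusted p below 0.05 (edgeR). *Tnfsf10*, at −0.48, is the red point, the medians lie between −0.08 and 0.02, and the grey point at the upper right is *Il2*, with 6 to 39 counts per library.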

How the data were processed

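Total RNA depleted of ribosomal RNA was sequenced from 8 cultures (KAPA RNA HyperPrep kit with RiboErase). Per the labels and the study's methods, the authors aligned reads to GRCm39 with STAR 2.7.8a and deposited estimated counts per gene from the E/M algorithm of Partek Flow, filtered and not normalized. Of the deposited values, 22.2% were more than 0.05 away from a whole number, and the lowest highest count of a gene was 10. Annotation version and strand setting are not given in the sources used here. The methods describe replicates from independent mice but state fewer per group than the labels; all 4 labelled libraries per genotype were used, and whether each came from its own mouse is not given.

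Estimated counts were rounded. Genes were kept with filterByExpr (minimum count 10), leaving 11317 of 11911, and normalized by TMM. Genotype was tested with edgeR 4.0.16 (glmQLFit, glmQLFTest, two-sided; R 4.3.3), and p-values were adjusted across the tested genes by the Benjamini-Hochberg method. Standard errors and 95% intervals are those implied by the F statistic. Single values were compared by two-sided exact permutation over 70 arrangements on log2(CPM + 0.5). Depth was 13258239 to 16001676 counts, at which 3 counts, a floor covering counting error only, equal 0.188 to 0.225 CPM. Lengths, coordinates and overlaps came from GENCODE mouse release M39 (GRCm39), which holds 11910 of the listed identifiers. The fit was tested on simulated data. No libraries of a genotype were duplicates (chi-square per degree of freedom 2.59 to 6.31). Alternatives were other filters, normalizations, DESeq2 1.42.0, limma 3.58.1 voom with quality weights, unrounded counts, a replicate block, 1 surrogate variable from sva 3.50.0, other pseudocounts and leaving out each library.

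The members and lists were chosen with earlier results of these data known. The text names all members, *Tdrd3* and *Foxp3* as label checks, genes of each list with an unadjusted P below 0.05, or otherwise its 2 most abundant genes, and the 2 genes most like *Bcl2* and *Bcl2l11* (those for *Mcl1* are not reported here); further list genes were added after their values were seen.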

Additional observations from a re-analysis of the deposited data

How the results depend on the processing

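No member had an adjusted p below 0.05 in any of the 17 alternatives, the lowest being 0.286 for *Bax*. Members with an unadjusted P below 0.05 numbered 0 without the library labelled WT3 and 1 in each other alternative. Genes with an adjusted p below 0.05 over the whole table, 30 as reported, numbered 81 with DESeq2, 95 with voom, 87 with the replicate block and 8 with 1 surrogate variable, and from 6 (without KO1) to 162 (without KO2) when a library was left out. At an unadjusted P below 0.05, 1052 as reported, the surrogate variable gave 617 and leaving out a library gave 697 to 1230. The causes were not tested.

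Members with log2 fold changes near 0 changed sign. With the surrogate variable *Bcl2* was at 0.0504, *Bcl2l1* at −0.0290 and *Bcl2l11* at 0.119. With voom *Bid* was at 0.0242 and *Bbc3* at −0.00415. *Bbc3* was also at −0.000261 with DESeq2 size factors, −0.000249 with DESeq2 and −0.00274 with the replicate block. When a library was left out, the edgeR log2 fold change ran from −0.0506 to 0.0187 for *Bcl2*, −0.0416 to 0.00272 for *Mcl1*, −0.203 to 0.0523 for *Bcl2l11*, −0.0605 to 0.0718 for *Bid* and −0.0594 to 0.0325 for *Bbc3*. It kept its sign for *Bad* (0.0190 to 0.183), *Pmaip1* (0.0837 to 0.223), *Bcl2l1* (0.0272 to 0.0877), *Bak1* (−0.0685 to −0.0277) and *Bax* (−0.168 to −0.102). With the surrogate variable *Pmaip1* was at 0.0477 and *Bad* at 0.197. The difference of mean log2 CPM ran from −0.0524 to 0.0186 for *Bcl2*, −0.0406 to 0.00354 for *Mcl1*, −0.201 to 0.0306 for *Bcl2l11*, −0.0600 to 0.0690 for *Bid* and −0.0571 to 0.0276 for *Bbc3*.

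Same-numbered libraries did not deviate together (correlations of −0.0458, 0.00404, −0.0417 and 0.0691 over genes), so the numbers were not taken as pairs, and the replicate block moved the calls over all genes from 30 to 87 and no member across the threshold. With 4 libraries per genotype, the p-values set the difference between genotypes against the spread between these cultures, which edgeR moderates across genes. The intervals of *Pmaip1*, *Bad* and *Bcl2l11* were the widest among the members.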
